A study of Mus musculus with 10 samples.

Results

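Nodal and TGF-beta pathway genes were followed across mouse trophoblast stem cells and their derivatives. The 9 genes were taken by symbol: Nodal, Lefty1, Lefty2, Fst, Smad7, Skil, Pmepa1, Tgif1 and Ldlrad4, out of 28227 gene rows over all tables. All 9 had a row in the bulk table and in the pTSC and TSC single-cell tables, and 8 had a row in the differentiated TSC and blastoid pTSC tables, where Fst was not listed. Only Smad7 and Pmepa1 were read at 583 UMIs or more in every single-cell library, and Nodal reached 27 to 185 UMIs per library.

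Nodal and the TGF-beta proteins are secreted ligands of one superfamily that bind paired serine/threonine kinase receptors, which phosphorylate SMAD2 and SMAD3. These join SMAD4, enter the nucleus and act on transcription, and many of the genes they switch on encode inhibitors that dampen the pathway, among them Lefty1, Lefty2, Smad7, Skil and Pmepa1. In the early mouse embryo Nodal is made by the epiblast, and it and activin or TGF-beta are known to help to keep trophoblast stem cells undifferentiated.

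RNA was counted with CEL-Seq2, which reads transcript ends tagged with unique molecular identifiers (UMIs), in 4 libraries of single sorted cells and in 6 bulk libraries, all on a C57BL/6J background. Differentiated TSCs were the F4 line of trophoblast stem cells (TSCs) after 6 days without Fgf4, Tgfb and heparin, having first been plated with them. Blastoid pTSCs were cells of the line pTS1 recovered from blastoids, which are blastocyst-like structures assembled from stem cells. The pTSCs were a newly derived culture in LT21 medium, and the TSCs were F4 cells in Tx medium, which holds the 3 factors withdrawn for differentiation. These 4 groups had 1 library each and carried a GFP cassette integrated at random. The labels do not say whether the pTSC culture and pTS1 are the same line, and line and medium changed together between pTSCs and TSCs. The bulk libraries came from a TSC line whose Cdx2 locus carries an eGFP knock-in, divided by sorting into 3 CDX2-high and 3 CDX2-low libraries. Nothing says that these came from separate cultures, so p-values measure the spread between these libraries, which may be technical.

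A well was kept as a cell where it held 2000 or more UMIs, not counting those of mitochondrial genes. Kept were 318 differentiated TSCs (median depth 8473 UMIs), 257 blastoid pTSCs (8242), 299 pTSCs (6844) and 318 TSCs (15091). Bulk libraries held 116659 to 272030 counts. All 11 trophoblast stem cell markers had UMIs in each single-cell library, with a summed level of 1854 CPM (the usual scaling of counts to one common library total) in differentiated TSCs, 3214 in blastoid pTSCs, 4336 in pTSCs and 4758 in TSCs. Xist held 14 UMIs in the differentiated TSC library and 1515 in the TSC library, while 4 Y-linked genes held 193 UMIs in the differentiated TSC library and 0 in the TSC library. Both libraries are labelled F4, so cell line and differentiation cannot be told apart between them. The 384 well numbers recur on every plate and mark positions only.

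In the blastoid pTSC library 16 of 257 wells went against the label. They held UMIs of at least 2 of the 6 embryonic stem cell markers Pou5f1, Dppa5a, Dppa4, Fgf4, Tdh and Sall4, a rule chosen after the values were seen. Among differentiated TSCs and pTSCs there were 0 such wells, and among TSCs 2. These 2 TSC wells had a median of 35583 UMIs, and both held the keratin Krt8, Gata3 and Eomes. The rule thus also caught deep wells with trophoblast genes. Cdx2 had no UMI in the 16 blastoid wells, but it was seen in only 53 of the other 241. Krt8 was held by 4 of the 16, against 225 of the other 241. Gata3 and Eomes were held by 2 of the 16 each, against 199 and 135 of the others. Sox2, also counted here as a trophoblast stem cell marker, went the other way, with 14 of the 16 and 121 of the others. The median depth of the 16 wells was 5147 UMIs, against 8389 UMIs in the other 241. Levels and ratios of Nodal, Lefty1, Lefty2 and Tdgf1 in the blastoid library, where a large part of their UMIs lay in these wells, are given with and without them below.

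Nodal, the ligand, was highest in the differentiated TSC library. It had 56.8 CPM there (185 UMIs), 11.7 CPM in blastoid pTSCs (27 UMIs), 17.6 CPM in pTSCs (43 UMIs) and 13.7 CPM in TSCs (74 UMIs). The differentiated TSC library stood above the other libraries by more than counting error, and neighbours among the other 3 did not differ beyond it. Without the 16 marker wells blastoid pTSCs had 6.78 CPM, 0.487 of the TSC level (0.260 to 0.856). Against TSCs the level in differentiated TSCs was 4.14-fold higher (95% interval 3.14 to 5.50), and against pTSCs 3.22-fold higher (2.30 to 4.60). Here and throughout, intervals of single-cell values cover counting error only, and since each group has 1 library there is no replicate check and no test. A level summed over a library cannot separate more cells with a transcript from more transcripts per cell, so shares of cells were counted too. With every cell thinned to 2000 UMIs, 8.18% of differentiated TSCs had a Nodal UMI (exact binomial interval 5.41% to 11.8%), against 1.89% of TSCs (0.695% to 4.06%). Without thinning the shares were 23.0% of differentiated TSCs and 14.8% of TSCs. The 5 richest differentiated TSCs held 42 of the 185 UMIs, and 1 cell held 12.

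**Figure D1:**
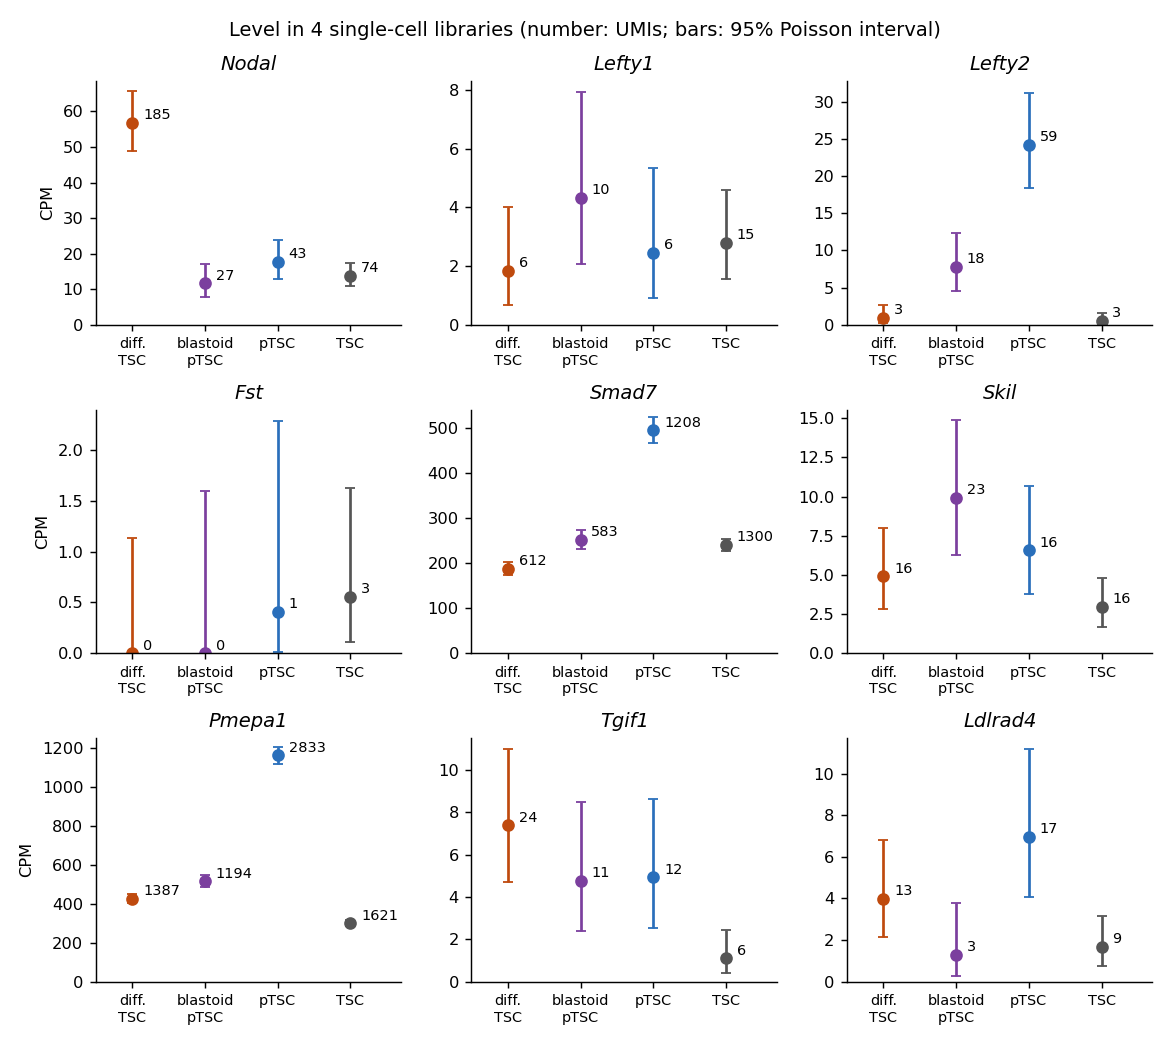
Level of each gene in CPM outside mitochondrial genes (vertical axis) in the 4 single-cell libraries (horizontal axis), 1 point per library, with 95% Poisson intervals and the UMI count beside each point. Nodal stands highest in differentiated TSCs (56.8 CPM), and Lefty2, Smad7 and Pmepa1 stand highest in pTSCs (24.2, 496 and 1162 CPM).

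The bases before the Nodal start are shown because Nodal had the clearest difference between differentiated TSCs and TSCs. The sequence is that of RefSeq on GRCm38.p6, chr10:61417722-61417971, plus strand, 250 bases ending at the base before the start, and nothing in it is in capitals because no motif searched was found.
Nodal: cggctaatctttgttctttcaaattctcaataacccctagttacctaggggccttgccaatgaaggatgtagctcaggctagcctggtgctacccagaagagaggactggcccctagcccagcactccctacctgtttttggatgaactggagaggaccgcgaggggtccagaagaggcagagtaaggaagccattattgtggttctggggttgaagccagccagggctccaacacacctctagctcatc
The letters searched on both strands were CAGAC or GTCTG (the SMAD box), GTCTAGAC (a palindrome that shares 4 letters with CAGAC), TGTGGATT or AATCCACA (bound by FOXH1) and TGACAG or CTGTCA (bound by TGIF factors, and ending in the 3 letters that open CAGAC). Among 32851 RefSeq windows of this length 42.2% held the SMAD box, 0.167% the palindrome, 0.718% the FOXH1 letters and 15.9% the TGIF letters. That none was found says only that these letters are not in this window. Of the 9 genes, Nodal and Tgif1 had an entry in the sequence table used here.

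The extracellular inhibitors Lefty1 and Lefty2 block Nodal and its co-receptors, and Fst encodes follistatin, which binds activin. Lefty2 had 24.2 CPM in pTSCs (59 UMIs in 27 cells) and 0.557 CPM in TSCs (3 UMIs in 3 cells). It had 0.922 CPM in differentiated TSCs (3 UMIs in 2 cells) and 7.77 CPM in blastoid pTSCs (18 UMIs in 11 cells), or 3.16 CPM there without the marker wells. Among the single-cell libraries Lefty2 was thus seen mainly in pTSCs and in some blastoid wells. In the pTSC library 5 cells held 30 of its 59 UMIs. The bulk TSC libraries together read Lefty2 at 10.2 CPM (11 counts), above its level in the single-cell TSC library. The ratio of pTSCs to TSCs was 43.5 (14.2 to 217), and the width of its interval comes from the 3 UMIs in TSCs. Lefty1 had 1.84 CPM in differentiated TSCs, 4.32 in blastoid pTSCs, 2.46 in pTSCs and 2.78 in TSCs, from 6 to 15 UMIs each, and no pair of neighbouring levels differed beyond counting error. Lefty1 and Lefty2 are near copies in part. In the GENCODE transcripts 11.6% of the 50-base stretches of Lefty2 were found in Lefty1 and 17.9% of those of Lefty1 in Lefty2. In the last 500 bases, the end that CEL-Seq2 reads, 0 of 451 stretches of Lefty2 and 11 of 451 of Lefty1 were shared, so a few Lefty1 reads could be uncertain. Fst was barely counted, with 0 UMIs in differentiated TSCs and blastoid pTSCs, 1 UMI in pTSCs and 3 UMIs in TSCs. A count of 0 allows a level of up to 0.922 CPM in differentiated TSCs and 1.30 CPM in blastoid pTSCs.

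The intracellular inhibitors held most of the reads. Smad7, which blocks the receptors and recruits ubiquitin ligases to them, had 188 CPM in differentiated TSCs, 252 in blastoid pTSCs, 496 in pTSCs and 241 in TSCs. Pmepa1, a membrane protein that keeps SMAD2 and SMAD3 from the receptors, had 426 CPM in differentiated TSCs, 516 in blastoid pTSCs, 1162 in pTSCs and 301 in TSCs. Both stood highest in pTSCs. Below pTSCs the order differed: for Pmepa1 all 4 levels were apart beyond counting error, with TSCs lowest, while for Smad7 blastoid pTSCs and TSCs were not apart (ratio 1.04, 0.945 to 1.15) and differentiated TSCs were lowest. After thinning, 45.0% of differentiated TSCs, 51.0% of blastoid pTSCs, 81.6% of pTSCs and 37.7% of TSCs had a Pmepa1 UMI. The shares for Smad7 were 29.2% of differentiated TSCs, 37.7% of blastoid pTSCs, 60.5% of pTSCs and 30.5% of TSCs, so its high level in pTSCs was spread over many cells.

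Skil encodes SnoN, a repressor that binds SMAD complexes, and it had 16 to 23 UMIs in each library. Its level was 4.92 CPM in differentiated TSCs, 9.93 in blastoid pTSCs, 6.56 in pTSCs and 2.97 in TSCs, with no neighbouring pair apart beyond counting error. The highest and lowest were apart: without the marker wells blastoid pTSCs had 3.15-fold the TSC level of Skil (1.57 to 6.47). Ldlrad4, a relative of Pmepa1 that also holds back SMAD2 and SMAD3, had 3.99 CPM in differentiated TSCs (13 UMIs), 1.30 in blastoid pTSCs (3 UMIs), 6.97 in pTSCs (17 UMIs) and 1.67 in TSCs (9 UMIs). Tgif1, a homeobox repressor that binds SMAD2, had 7.37 CPM in differentiated TSCs (24 UMIs), 4.75 in blastoid pTSCs (11 UMIs), 4.92 in pTSCs (12 UMIs) and 1.11 in TSCs (6 UMIs). Only TSCs stood apart from their neighbour for Tgif1, and the low counts of these 3 genes leave wide intervals.

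The comparison of differentiated TSCs with TSCs sets cells after withdrawal of Fgf4, Tgfb and heparin beside cells kept with them. Because Xist and Y-linked RNAs differ between these libraries, cell line and withdrawal cannot be told apart here or in the next paragraph. Of the 9 genes 7 had at least 10 UMIs over both libraries, of which 3 were at least 2-fold higher in differentiated TSCs (Nodal, Tgif1 and Ldlrad4) and 0 at least 2-fold lower. Over all 12158 genes measured, 17.5% were at least 2-fold higher and 18% at least 2-fold lower. With a minimum of 50 UMIs 1 of 3 genes was higher, beside 13.6% of all genes. Tgif1 was 6.62-fold higher (2.64 to 19.8), and Ldlrad4 2.39-fold higher with an interval that includes no difference (0.946 to 6.34). Without the 5% of wells with the most UMIs Ldlrad4 lay inside the 2-fold line (log2 ratio 0.74), and 2 genes were higher. The 2 genes with the most reads went opposite ways by small amounts, Pmepa1 1.42-fold higher (1.32 to 1.52) and Smad7 1.28-fold lower (1.16 to 1.41). The median log2 ratio of the 7 genes was 0.73, against 0.05 for all genes measured. Set against pTSCs in place of TSCs, differentiated TSCs had Lefty2, Smad7 and Pmepa1 at least 2-fold lower, with Pmepa1 at 0.367 of the pTSC level (0.344 to 0.391) and Smad7 at 0.379 (0.344 to 0.419), and Nodal at least 2-fold higher. Of 8 genes measured against pTSCs, 1 was higher and 3 lower, beside 20.5% and 22.5% of all genes. Markers of other trophoblast cells moved with these values: the 10 mural trophectoderm markers summed to 7818 CPM in differentiated TSCs and 3803 CPM in TSCs with all 10 detected in both. Of 8 giant cell markers, 4 were detected in differentiated TSCs (299 CPM) and 6 in TSCs (44.2 CPM), with Prl2c2 and Prl3b1 at 0 in both and Prl3d1 and Ctsq at 0 in differentiated TSCs. By gene, 5 of 10 mural, 3 of 4 giant cell, 3 of 5 ectoplacental cone and 4 of 6 labyrinth markers measured were at least 2-fold higher in differentiated TSCs, while 8 of 11 stem cell and 5 of 8 polar markers were at least 2-fold lower. Their part in the result was not tested.

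Of the 60 other pathway genes listed, 38 were measured between differentiated TSCs and TSCs. Of these 10 were at least 2-fold higher and 6 at least 2-fold lower, beside 17.5% and 18% of all genes measured. Of the convertases that cut Nodal precursors, Pcsk6 was at 6.45 CPM in differentiated TSCs and 56.2 CPM in TSCs (8.71-fold lower), and Furin at 9.83 CPM in differentiated TSCs and 32.3 CPM in TSCs (3.28-fold lower). The T-box factor Eomes, a partner of SMAD2 and SMAD3, was at 119 CPM in differentiated TSCs and 377 CPM in TSCs. The pseudoreceptor Bambi was at 0.270 and the secreted Fstl1 at 0.253 of the TSC level. Genes known to answer to TGF-beta in other cells were higher in 6 of 12 measured and lower in 0, beside the same shares of all genes. Among the 6 were Bhlhe40 (6.77-fold), the transglutaminase Tgm2 (3.56-fold), the cyclin kinase inhibitor Cdkn2b (3.38-fold) and Klf10 (2.73-fold). Smad2 itself was 2.29-fold higher.

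**Figure D2:**
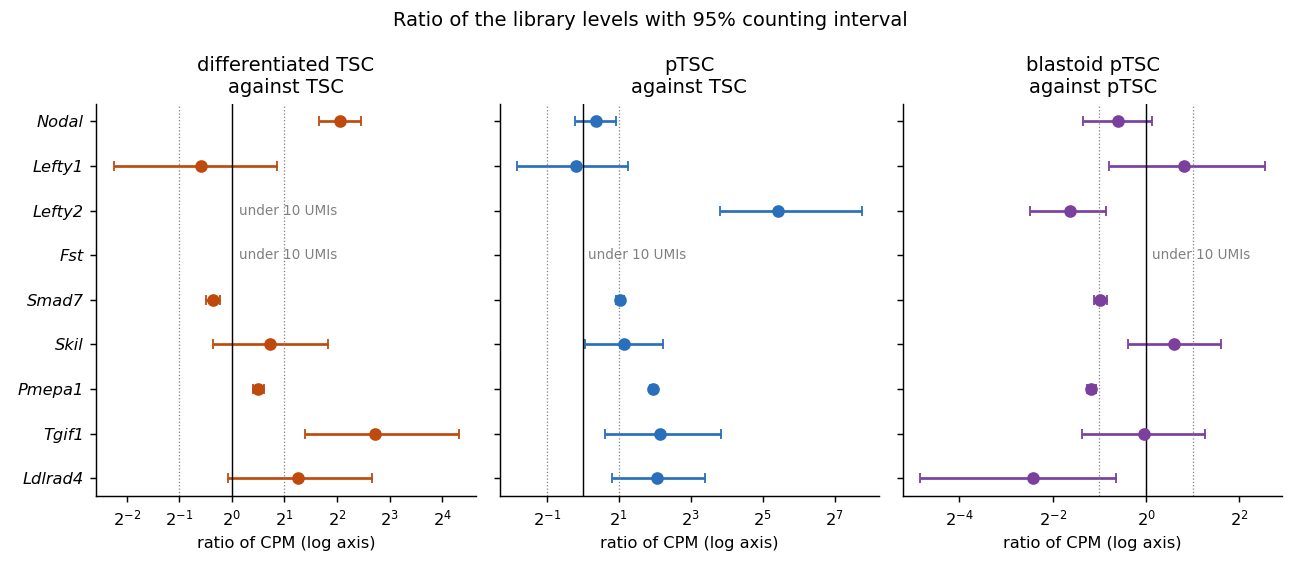
Ratio of library levels (horizontal log axis) for each gene (vertical axis) in the 3 single-cell comparisons, with 95% counting intervals, a solid line at no difference and dotted lines at 2-fold. Nodal, Tgif1 and Ldlrad4 lie past 2-fold in differentiated TSCs, 6 genes lie past 2-fold higher in pTSCs, and Lefty2, Pmepa1 and Ldlrad4 lie past 2-fold lower in blastoid pTSCs.

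Setting pTSCs against TSCs compares a newly derived culture in LT21 with F4 cells in Tx, and uses the same TSC library as the comparison above. Of 8 genes measured, 6 were at least 2-fold higher in pTSCs and 0 at least 2-fold lower, beside 17.6% and 13.9% of all 12070 genes measured. With a minimum of 50 UMIs 3 of 4 genes were higher, beside 9.71% of all genes. Pmepa1 was 3.86-fold higher (3.63 to 4.11) and Smad7 2.05-fold higher (1.90 to 2.22), just past the 2-fold line. Smad7 lay inside that line without the 5% of wells with the most UMIs (log2 ratio 0.99) and with TMM scaling (0.95), which left 5 genes higher each time. Lefty2 is given above, and Tgif1 (4.42-fold, 1.54 to 14.4), Ldlrad4 (4.18-fold, 1.76 to 10.6) and Skil (2.21-fold, 1.04 to 4.72) rest on 18 to 32 UMIs each over both libraries. The 2 genes that were not 2-fold apart were Nodal (1.28-fold, 0.861 to 1.90) and Lefty1 (0.884, 0.281 to 2.41). The median log2 ratio of the 8 genes was 1.55, against -0.04 for all genes measured. Of the 60 other pathway genes 40 were measured, with 8 at least 2-fold higher and 5 at least 2-fold lower and a median log2 ratio of -0.08, near the shares and the median of all genes. Among these were the pseudoreceptor Bambi (2.39-fold higher) and 4 receptors and co-receptors, 0 of which were past 2-fold in either direction. Other genes known to answer to TGF-beta had 5 of 14 higher and 3 lower. By gene, Tgfb1 was at 28.7 CPM in pTSCs and 2.60 CPM in TSCs (11.1-fold), Bhlhe40 was 7.01-fold, Pcsk6 3.11-fold and Junb 2.45-fold higher, while Tgm2 had 3 UMIs in pTSCs and 235 UMIs in TSCs. Markers of other cells differed as well. Polar trophectoderm markers summed to 18933 CPM in pTSCs and 8256 CPM in TSCs, with 9 of 10 detected in both and Cldn26 at 0, but to 8600 CPM in pTSCs and 7222 CPM in TSCs without Gsto1, and 3 of 9 measured were at least 2-fold higher. Primitive endoderm markers summed to 315 CPM in pTSCs and 83.5 CPM in TSCs, with 4 of 6 measured higher, 0 lower and Gata4 at 0 in both, and most of that sum was Foxq1 (293 CPM in pTSCs and 68.8 CPM in TSCs). Giant cell markers summed to 4.10 CPM in pTSCs and 44.2 CPM in TSCs (3 of 4 measured lower), and ectoplacental cone markers to 875 CPM in pTSCs and 1907 CPM in TSCs (3 of 5 lower). Mural markers summed to 5611 CPM in pTSCs and 3803 CPM in TSCs, with 3 of 10 higher and 2 lower. Their part was not tested.

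In blastoid pTSCs set against pTSCs, 0 of 8 genes measured were at least 2-fold higher and 3 were at least 2-fold lower, beside 13.4% and 9.42% of all 11343 genes measured. Pmepa1 was 2.25-fold lower (2.11 to 2.41), Lefty2 3.11-fold lower (1.81 to 5.61) and Ldlrad4 5.38-fold lower (1.56 to 28.7, from 3 UMIs in blastoid pTSCs and 17 in pTSCs). Smad7 lay just inside the line at 1.97-fold lower (1.78 to 2.18), and just past it with TMM scaling (log2 ratio -1.08) or with mitochondrial genes in the total (-1.05), which made 4 genes lower. Nodal (0.661 of the pTSC level, 0.393 to 1.09), Skil (1.51), Lefty1 (1.75) and Tgif1 (0.965) had intervals that include no difference. Set against the TSC library in place of pTSCs, Lefty2 was at 7.77 CPM in blastoid pTSCs and 0.557 CPM in TSCs, and Pmepa1 at 516 CPM in blastoid pTSCs and 301 CPM in TSCs, so both lay above TSCs and below pTSCs. Without the marker wells Lefty2 was 5.61-fold the TSC level (1.28 to 33.6) and Pmepa1 1.78-fold (1.65 to 1.92).

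The 16 marker wells carried much of the Nodal and Lefty2 signal of the blastoid library. Nodal had 116 CPM in these wells (12 UMIs) and 6.78 CPM in the other 241 wells (15 UMIs). Lefty2 had 106 CPM in these wells (11 UMIs) and 3.16 CPM in the others (7 UMIs). Lefty1 had 29.0 CPM in these wells (3 UMIs, all in 1 well) and 3.16 CPM in the others (7 UMIs). The opposite held for Pmepa1, with 126 CPM in the 16 wells and 534 CPM in the others, while Smad7 had 203 and 254 CPM with overlapping intervals. Without these wells, the log2 ratio of blastoid pTSCs to pTSCs was -1.38 for Nodal, -0.60 with them, and -2.94 for Lefty2, -1.64 with them. The count of genes at least 2-fold lower was then 4 of 8, Nodal being the fourth, and 0 were higher. The shares over all genes were computed only with these wells kept (9.42% lower and 13.4% higher). The log2 ratios of Pmepa1 (-1.12) and Smad7 (-0.96) moved little. That of Lefty1 was 0.36 without the marker wells and 0.81 with them, both with intervals that include no difference. The embryonic stem cell and epiblast markers as a list had 9 of 10 genes detected in blastoid pTSCs (227 CPM) and 8 of 10 in pTSCs (144 CPM), with Nanog at 0 in both. Without the 16 wells 7 of 10 were detected in blastoid pTSCs, at 105 CPM.

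**Figure D3:**
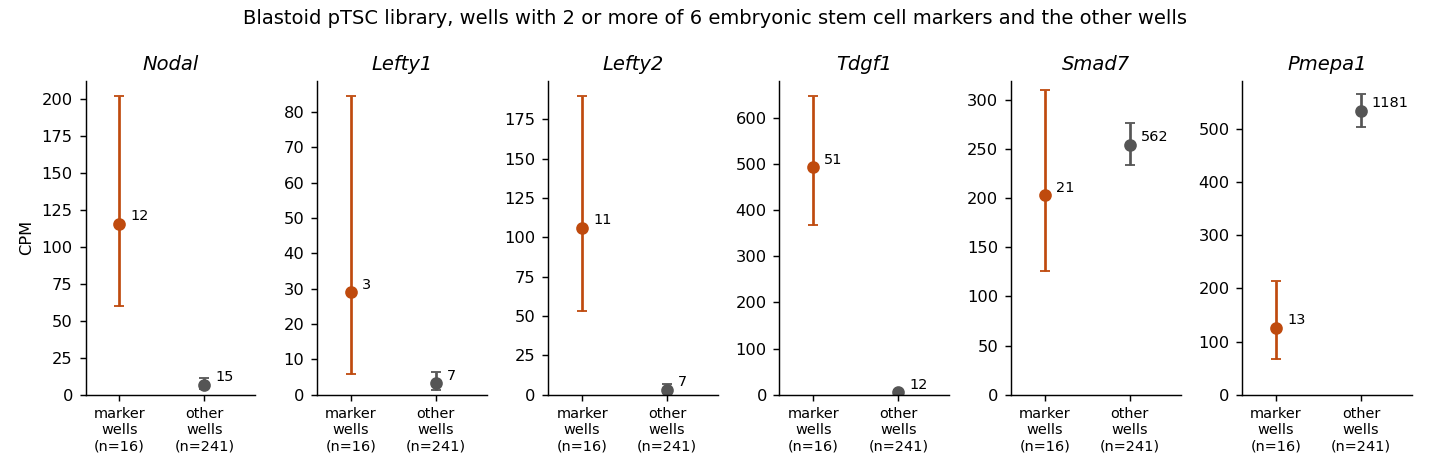
Level in CPM (vertical axis) of 6 genes in the blastoid pTSC library, in the 16 wells with at least 2 of 6 embryonic stem cell markers and in the other 241 wells (horizontal axis), with 95% Poisson intervals and UMI counts. Nodal, Lefty1, Lefty2 and Tdgf1 stand higher in the 16 wells (Nodal 116 against 6.78 CPM) and Pmepa1 stands lower (126 against 534 CPM). The 3 Lefty1 UMIs of the 16 wells lie in 1 well.

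Of the other 60 pathway genes 36 were measured between blastoid pTSCs and pTSCs. Of them 10 were at least 2-fold higher and 6 at least 2-fold lower, beside 13.4% and 9.42% of all genes measured. Without the 16 wells these were 8 higher and 6 lower of 35 measured, and no share over all genes was computed without those wells. Tdgf1, a co-receptor that Nodal needs, had 63 UMIs in blastoid pTSCs and 0 in pTSCs, and 51 of the 63 lay in the 16 wells. With the 0 set to 3 UMIs for the pTSC library it was at least 22.1-fold higher with these wells. Without them it was at least 4.41-fold higher (12 UMIs, 5.42 CPM), and those 12 UMIs lay in 3 of the other 241 wells. The receptor Acvr1b was 2.29-fold, the co-receptor Tgfbr3 2.36-fold, Fstl1 2.40-fold (1.91-fold without the 16 wells), Klf10 3.22-fold and Tgm2 67.7-fold higher (193 UMIs in blastoid pTSCs, 3 in pTSCs). Bhlhe40 was at 0.314, Bambi at 0.351, Pcsk6 at 0.405, Junb at 0.454 and Thbs1 at 0.0972 of the pTSC level. Markers of other trophoblast cells differed as well. Ectoplacental cone markers summed to 3637 CPM in blastoid pTSCs and 875 CPM in pTSCs, with 4 of 4 measured at least 2-fold higher. Giant cell markers summed to 116 CPM in blastoid pTSCs and 4.10 CPM in pTSCs (2 of 3 measured higher), with 5 of 8 at 0 in blastoid pTSCs and 7 of 8 at 0 in pTSCs, and labyrinth markers to 105 CPM in blastoid pTSCs and 18.9 CPM in pTSCs (3 of 4 higher). Mural markers summed to 10482 CPM in blastoid pTSCs and 5611 CPM in pTSCs, all 10 detected in both, with 2 of 10 higher. Polar markers summed to 7791 CPM in blastoid pTSCs and 18933 CPM in pTSCs (9 of 10 detected in both, Cldn26 at 0), with 5 of 9 lower, and to 4834 CPM in blastoid pTSCs and 8600 CPM in pTSCs without Gsto1. Their part was not tested.

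Levels also varied within libraries. Each library was divided into 3 clusters made with the 9 genes left out, none of which reached the 3 markers needed for a name. In differentiated TSCs Nodal had 96.6 CPM in a cluster of 154 cells led by Rgs5, Eomes and Spry4, 22.7 CPM in 85 cells led by Serpinb9e and Serpinb9g, and 22.1 CPM in 79 cells led by Spsb1, Mal and Dkk1. The first of these clusters held 146 of the 185 Nodal UMIs. Pmepa1 had another order there, with 414, 185 and 647 CPM in the same clusters, and Smad7 had 234, 93.3 and 194 CPM. In TSCs Nodal had 19.8 CPM in 164 cells led by Cyp26a1 and Zic2, 11.3 CPM in 103 cells led by Ptges and Capn6, and 1.06 CPM (1 UMI) in 51 cells led by Gjb2 and Zfp36l3. Pmepa1 was near even over these, at 323, 273 and 290 CPM. In pTSCs Pmepa1 had 1440 CPM in 149 cells led by Krt7, against 965 and 830 CPM in the other clusters, and Nodal had 15.4, 16.8 and 23.4 CPM with overlapping intervals. In blastoid pTSCs Pmepa1 was highest (711 CPM) and Smad7 lowest (175 CPM) in the 105 cells led by Serpinb9b and Ptgs2, while Smad7 was highest (347 CPM) and Pmepa1 lowest (311 CPM) in the 60 cells led by Cyp26a1. The cluster between these in size, of 92 cells, held 15 of the 16 marker wells, 15 of 27 Nodal UMIs and 15 of 18 Lefty2 UMIs. Without the marker wells it held 3 Nodal UMIs and 4 Lefty2 UMIs, and Pmepa1 (719 and 311 CPM) and Smad7 (176 and 347 CPM) kept their order in the clusters of 105 and 60 cells. These are descriptions of single libraries.

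**Figure D4:**
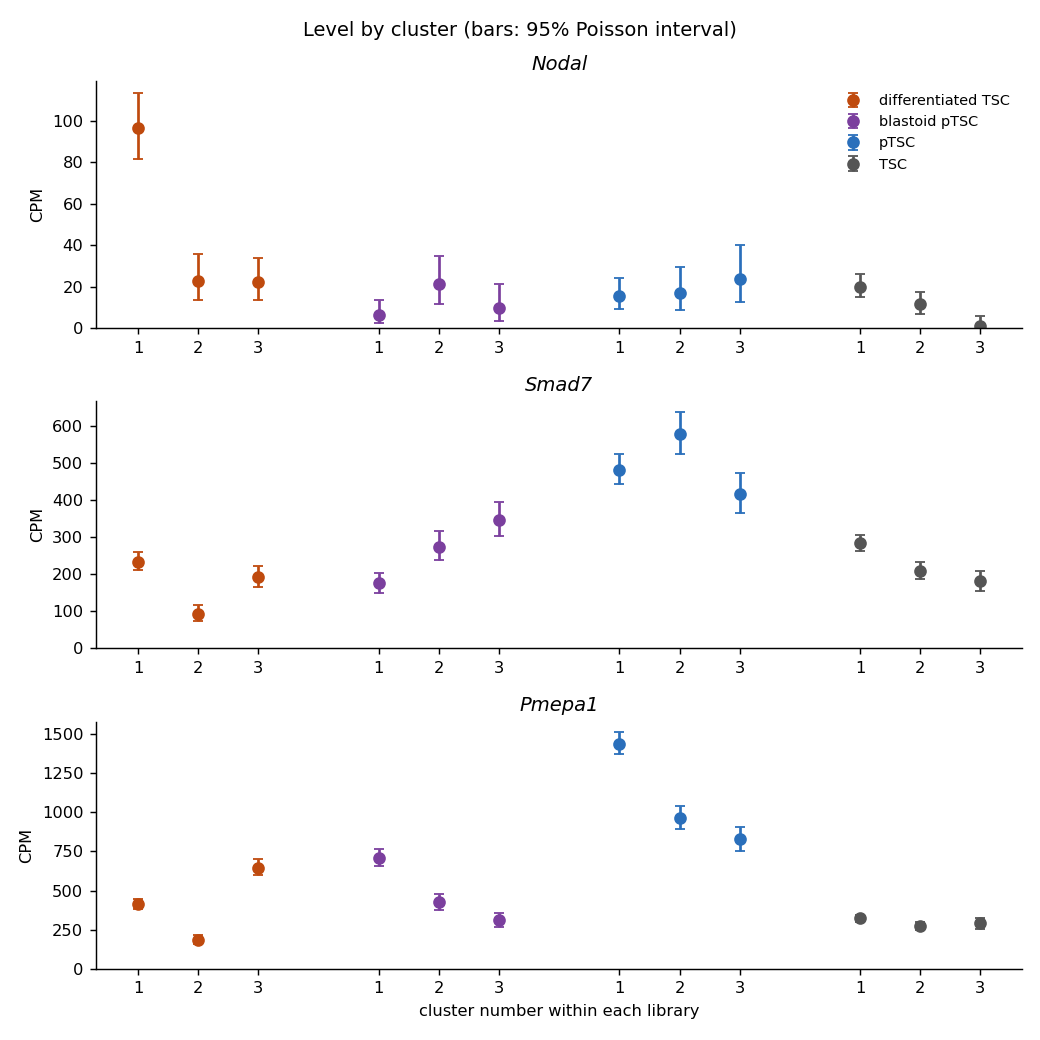
Level in CPM (vertical axis) of Nodal, Smad7 and Pmepa1 in the 3 clusters of each single-cell library (horizontal axis, numbered by size), with 95% Poisson intervals. Nodal reaches 96.6 CPM in cluster 1 of differentiated TSCs and at most 23.4 CPM in any other cluster shown, and Pmepa1 reaches 1440 CPM in cluster 1 of pTSCs.

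Cell by cell the genes were weakly tied. Pearson's r of Smad7 and Pmepa1 was 0.20 over 318 differentiated TSCs, 0.03 over 257 blastoid pTSCs, 0.18 over 299 pTSCs and 0.34 over 318 TSCs, on logged values scaled to 10000 UMIs, which share library and depth. Nodal and Lefty2 had an r of 0.42 in blastoid pTSCs, where 5 of 11 wells with Lefty2 also held Nodal, but an r of 0.05 without the 16 marker wells, where 1 of 6 did. Over all 4 libraries (1192 cells) the genes most like Nodal were Ifitm3, Tulp3 and Coro2b (mean r 0.21, 0.19 and 0.18), those most like Smad7 were Ppp2r2c, B4galt6 and Sept11 (0.24, 0.22 and 0.22), and those most like Pmepa1 were Slco2a1, Sfn and Col4a2 (0.35, 0.35 and 0.33). Pmepa1 ranked 18 among 7469 genes for likeness to Smad7. Correlations this weak in sparse counts are no finding.

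The sorted bulk libraries address which transcripts differ between cells with much and with little CDX2, a transcription factor of the trophoblast stem state. The Cdx2-eGFP transcript averaged 786 ± 51.3 CPM in CDX2-high and 65.7 ± 33.2 CPM in CDX2-low libraries (SD, n = 3 each), which checks the sort. At these depths 2 of the 9 genes passed the filter on low counts, Tgif1 and Pmepa1. Of those 2, 1 was called, Tgif1, where 5.89% of the 3006 genes tested were called (3.09% higher and 2.79% lower).

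Tgif1 rose in CDX2-high cells. It had 133, 229 and 165 CPM in the CDX2-high libraries (21, 59 and 45 counts) and 42.9, 36.0 and 104 CPM in the CDX2-low libraries (5, 5 and 14 counts). All 3 CDX2-high libraries lay above all 3 CDX2-low libraries, as was so for 11.7% of genes tested, though the nearest pair were 133 and 104 CPM. The means were 176 ± 49.0 CPM in CDX2-high and 60.9 ± 37.3 CPM in CDX2-low (SD, n = 3 each), with a log2 fold change of 1.52 (SE 0.37, interval 0.76 to 2.28, adjusted p = 0.01305 by the quasi-likelihood test of edgeR, after Benjamini and Hochberg). The call was lost with DESeq2 (log2 fold change 1.51, adjusted p = 0.0534), without CDX2-high library 38 (1.30, adjusted p = 0.0759, edgeR) and without CDX2-low library 41 (1.24, adjusted p = 0.0597, edgeR), and each time the direction stayed. Mural trophectoderm markers were lower in the same libraries, at 1320 to 1606 CPM in CDX2-high and 2904 to 3123 CPM in CDX2-low, all 10 detected. Of 7 tested 5 were called lower, beside 2.79% of all genes tested. Ectoplacental cone markers were called lower in 3 of 3 tested, and stem cell markers in 1 of 9. Polar markers were called higher in 4 of 9 tested and lower in 0, beside 3.09% of all genes higher. Their part in the Tgif1 difference was not tested. In the single-cell TSC library Tgif1 had 1.11 CPM, against 138 CPM over the 6 bulk libraries, so the 2 kinds of library read this gene very differently and its single-cell levels are thin.

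The bases before the second of 5 annotated Tgif1 starts are shown because Tgif1 was the gene that passed the bulk test. This window held the most SMAD boxes of the 5, with 2, against 1, 0, 1 and 0 in windows 1, 3, 4 and 5. The sequence is that of RefSeq on GRCm38.p6, chr17:70851735-70851984, minus strand, 5′ to 3′ along the gene, with SMAD boxes in capitals at positions -191 and -59 from the start, and no annotated exon lies in it.
Tgif1: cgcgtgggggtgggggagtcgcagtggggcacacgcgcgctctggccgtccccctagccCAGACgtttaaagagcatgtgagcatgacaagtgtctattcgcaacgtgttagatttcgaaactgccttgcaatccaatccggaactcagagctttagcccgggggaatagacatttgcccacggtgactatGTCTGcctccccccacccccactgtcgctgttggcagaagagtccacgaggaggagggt
Of the 5 windows of Tgif1, 3 held a SMAD box, where 42.2% of all windows do, and none held the palindrome, the FOXH1 letters or the TGIF letters. A match of these letters is a description, not a bound site.

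Pmepa1 did not differ by more than the spread. It had 197, 152 and 140 CPM in CDX2-high and 171, 173 and 148 CPM in CDX2-low libraries, with ranges that overlapped. The means were 163 ± 30.1 CPM in CDX2-high and 164 ± 13.8 CPM in CDX2-low (SD, n = 3 each), and the log2 fold change was -0.05 (SE 0.27, interval -0.61 to 0.50, adjusted p = 0.956, edgeR). The interval leaves room for a change of up to 0.61 on the log2 scale downward.

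The other 7 genes were not tested in bulk because of their low counts. Smad7 had 7, 14 and 16 counts in CDX2-high libraries (44.4, 54.4 and 58.8 CPM) and 6, 4 and 2 counts in CDX2-low libraries (51.4, 28.8 and 14.8 CPM), and the groups overlapped. Skil had 4, 7 and 11 counts in CDX2-high and 8, 3 and 2 counts in CDX2-low libraries, and these overlapped in CPM. Nodal had 4, 0 and 2 counts in CDX2-high and 1, 1 and 4 in CDX2-low libraries, and Lefty2 0, 1 and 3 in CDX2-high and 1, 3 and 3 in CDX2-low libraries, so neither can be read in either direction. Lefty1 had 1 count in CDX2-high and 1 in CDX2-low libraries, and Ldlrad4 had 1 in CDX2-high and 4 in CDX2-low, all 4 in library 40. Fst had no count in any of the 6, which allows a level of up to 19.0 CPM in the shallowest CDX2-high library and 25.7 CPM in the shallowest CDX2-low library. Of the other 60 pathway genes 14 were tested and 0 were called. Among those, 4 had an unadjusted p under 0.05 by edgeR, among them Col4a1 (log2 fold change -0.67, adjusted p = 0.0929), Eomes (0.83, adjusted p = 0.147) and Eng (0.80, adjusted p = 0.216), and DESeq2 called 0 of the 14.

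**Figure D5:**
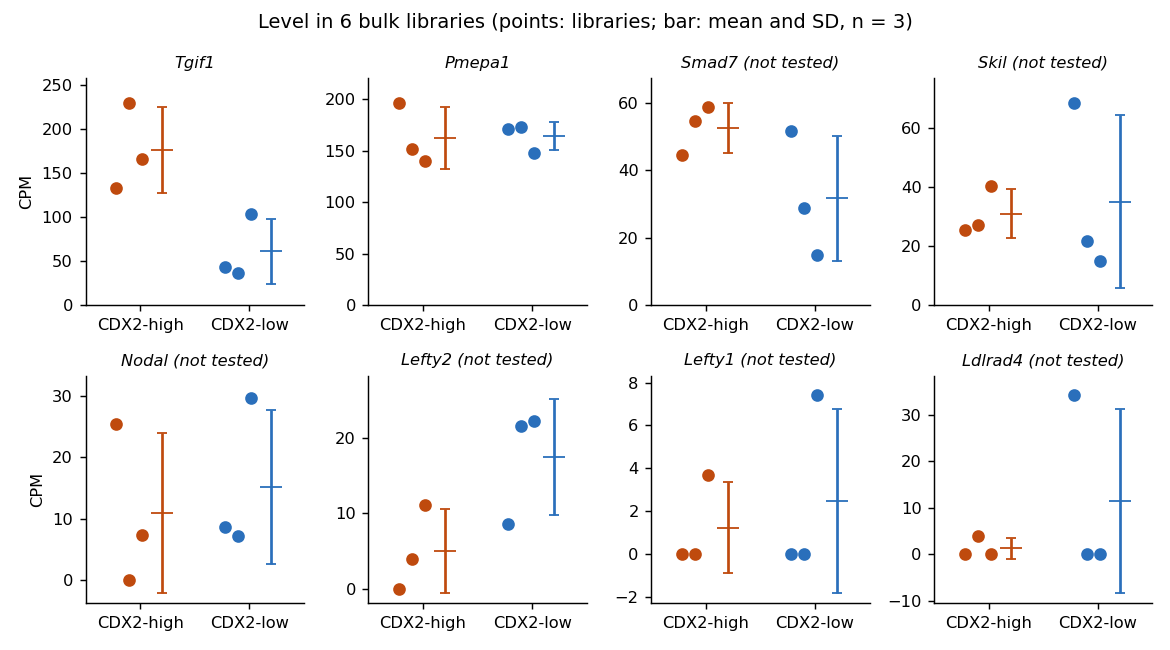
Level in CPM (vertical axis) of 8 genes in the 3 CDX2-high and 3 CDX2-low bulk libraries (horizontal axis), 1 point per library with mean and SD beside them (n = 3). Tgif1 lies at 133 to 229 CPM in CDX2-high and 36.0 to 104 CPM in CDX2-low libraries, and Pmepa1 overlaps.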

How the data were processed

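Of 10 libraries analysed, 6 were bulk and 4 of single cells. The bulk table deposited by the authors holds unscaled whole-number counts, 1 column per library. The single-cell tables, as deposited by the authors, hold transcripts per gene and well after UMI collapsing, treated here as estimated counts because no source used here says whether UMI collisions were corrected. They are whole numbers and needed no rounding. The submitters' processing notes name STAR 2.5.3a. For the tables, genome build and annotation: not given in the sources used here. A table in which a gene has no row counts it as 0. CPM values were computed here from the summed counts, outside mitochondrial genes in single cells and over all genes in bulk.

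For bulk, edgeR 4.0.16 under R 4.3.3 was used (filterByExpr, TMM, glmQLFit, glmQLFTest, no covariates), and a gene was called at a Benjamini-Hochberg adjusted p under 0.05 over all genes tested. In simulated counts for CDX2-high against CDX2-low (2786 genes tested), 62 of 93 genes changed 2-fold and 82 of 82 changed 4-fold were recovered, and 6 of 150 calls were false.

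Single-cell levels were sums over wells with at least 2000 UMIs. Genes with at least 10 UMIs over both libraries were measured. The 95% interval of a ratio is the exact conditional binomial one, and a 0 was set to 3 counts per library. UMIs of one cell are not separate samples, so these intervals cover counting error only. Shares carry Clopper-Pearson intervals after thinning to 2000 UMIs. Wells were sorted, so doublets were not called, and wells in the top 5% by UMIs were removed in 1 alternative. Clusters came from scanpy 1.11.5 (2000 variable genes without the 9 genes, 30 components, 15 neighbours, Leiden resolution 0.5), and leading genes are the top 10 by fold of those seen in at least 25% of a cluster's cells. DESeq2 1.42.0 served as an alternative test. Other software was scipy 1.17.1, pandas 2.3.3, numpy 2.4.6 and Python 3.11.15.

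All 9 genes are given in every comparison. Other pathway genes are named where called in bulk, or where at least 2-fold apart with at least 50 UMIs over both single-cell libraries, and Col4a1, Eomes and Eng were named in bulk after their values were seen, as were the wells with embryonic stem cell markers. For genes with at least 100 UMIs the 3 most like genes are named by mean Pearson r. One listed pathway gene that these rules name is counted but not reported here by name. The genes, the lists and the rules were chosen with earlier results of these data known.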

Additional observations from a re-analysis of the deposited data

Results flagged for a closer look

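The 344 wells with under 2000 UMIs over the 4 single-cell libraries enter no comparison, and together they held 178805 UMIs. They still held reads of 3 of the 9 genes above the 3 counts that a 0 allows, which is why they are given here. Pmepa1 had 104 UMIs in them (582 CPM, Poisson interval 475 to 705), against 525 CPM over all kept wells. Smad7 had 45 UMIs (252 CPM, 184 to 337), against 276 CPM over all kept wells. Nodal had 6 UMIs (33.6 CPM, 12.3 to 73.0), against 24.6 CPM over all kept wells. In each case the interval held the level of the kept wells.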

How the results depend on the processing

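No paired analysis was possible because the bulk replicate numbers run on from one group to the other and each single-cell group has 1 library. Of 187 ratios of single genes recomputed in single cells, 169 stayed within the counting interval of the reported value and 15 lay outside it. The other 3 changed sign from a difference of at least 2-fold, all with another reference library, which makes another comparison. The minimum of 50 UMIs leaves each ratio it keeps unchanged, so its values stayed within the interval by construction. Nodal in differentiated TSCs against TSCs had a log2 ratio of 1.89 to 2.12 under the alternatives that kept the TSC library. Against the pTSC library it was 1.69. With at least 50 UMIs per gene, 1 of 3 genes was higher in differentiated TSCs than in TSCs and 3 of 4 were higher in pTSCs than in TSCs. With means of per-cell CPM, 4 genes were at least 2-fold higher and 1 at least 2-fold lower in differentiated TSCs than in TSCs. With pTSCs in place of TSCs, 1 gene was higher and 3 were lower in differentiated TSCs, and the log2 ratio of Ldlrad4 was -0.80. With TSCs in place of pTSCs, 3 genes were at least 2-fold higher and 0 lower in blastoid pTSCs. Their log2 ratios were 3.80 for Lefty2, 2.09 for Tgif1 and 1.74 for Skil. Pmepa1 changed sign but lay inside the 2-fold line (0.78). No share over all genes was computed for that pair of libraries. That alternative was added after the data were seen, like the one without marker wells. In bulk, DESeq2 called 0 of the 2 tested genes and 88 of all genes, thinning to the smallest library left 98 calls in all against 177, and leaving out 1 library gave 81 to 189 calls in all and 0 to 1 among the 9 genes. Apart from the change of reference library, the cause of these shifts was not tested. A higher minimum measures fewer genes, and a thinned or reduced table holds fewer reads or libraries. Without thinning, 24 of 36 shares of cells lay outside the thinned interval. Depth limits Fst, Lefty1, Skil and Ldlrad4 throughout.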

Other observations

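The single-cell and bulk TSC libraries read some of the 9 genes at very different levels. Against the 6 bulk libraries together, the TSC single-cell library had Tgif1 124-fold lower (55.7 to 344), Lefty2 18.3-fold lower (4.84 to 102) and Skil 10.9-fold lower (5.90 to 21.2), while Smad7 was 5.30-fold and Pmepa1 1.88-fold higher. Nodal was read alike in both, at 13.7 CPM in the single cells and 11.1 CPM in bulk. Medians were taken over 6047 genes with at least 20 bulk counts, a minimum set on bulk alone, with a single-cell 0 set to 3. The median log2 difference of the TSC single cells from bulk was 0.52 for genes with 1 RefSeq transcript. It was -0.59 for those with 2 to 4 and -2.24 for those with 5 or more. Nodal (12 bulk counts) and Lefty2 (11 bulk counts) lie under that minimum. Nodal and Lefty2 have 1 RefSeq transcript, Smad7 and Pmepa1 2, Skil 4 and Tgif1 8. The libraries also differ in cell line, and which of these goes with the differences was not tested.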
